A study of Sus scrofa with 6 samples.

Results

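The genes described are the nuclear-encoded subunits of the respiratory chain and ATP synthase in pig 4-cell embryos. Members were the genes whose symbol in the deposited table is that of a subunit of complex I (NDUFA, NDUFB, NDUFC, NDUFS and NDUFV), complex II (SDHA to SDHD), complex III (the UQCR symbols), complex IV (COX4 to COX8) or complex V (ATP5), with assembly factors and pseudogenes left out. This rule used no measured value and gave 68 of 30376 genes: 37 of complex I, 4 of complex II, 2 of complex III, 8 of complex IV and 17 of complex V. ATP5S and ATP5SL carry the symbol prefix of complex V but are no subunits of it, and they were kept as members because the rule takes symbols. A pseudogene row that also bears the symbol NDUFA4 was left out. Another 19 subunits stand in the table under a locus name or another symbol and are described after the members.

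The embryos came from oocytes activated electrically, by 2 direct-current pulses at 120 V lasting 60 µs, so no sperm took part. Both groups were grown for 4 days to the 4-cell stage under mineral oil in PZM-5 medium with 4 mg/mL BSA and 5% CO2. The control group was kept at 38.5 °C and is labelled WT, and the high temperature group was kept at 41.5 °C and bears the label HT in its genotype field. The labels name no modified gene. Each group has 3 libraries of poly(A) RNA made with SMART-Seq v4, a full-length low-input kit that does not mark strand, and the labels speak of about 300 4-cell samples without saying how many went into a library. The stated question of the series is how high temperature acts on activation of the embryonic genome. Separate cultures for the replicates are not stated, and p-values then cover the variation among these 6 libraries only, part or all of which may be technical.

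Complexes I to IV pass electrons from NADH and succinate to oxygen in the inner mitochondrial membrane, and complexes I, III and IV pump protons across it. Complex V, the ATP synthase, uses the returning protons to make ATP. Complexes I, III, IV and V join subunits encoded in the nucleus with subunits encoded by mitochondrial DNA, while complex II is wholly nuclear. The early mammalian embryo works with mitochondria inherited from the oocyte, and before the embryonic genome is active its transcripts are those stored by the oocyte.

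The libraries held 28114005 to 30079385 reads assigned to genes. Members took 0.3525% to 0.693% of these reads, and the 13 mitochondrially encoded subunits took 21.0% to 26.7%. All 16 oocyte and embryo markers had reads in every library, with summed levels of 6488 to 7870 CPM (read counts scaled to library size) in controls and 5185 to 7731 CPM at high temperature. Of 14 cumulus and granulosa cell markers in the table, FSHR, FOXL2, INHA, INHBA, CYP11A1 and AMH were at 0 reads in all 6 libraries. The sum of that list was 34.96 to 75.4 CPM in controls and 40.6 to 80.4 CPM at high temperature, most of it from NR5A2. Of 12 stromal and blood cell markers, LUM and CDH5 were at 0 in all libraries, and the list summed to 16.6 to 16.9 CPM in controls and 13.1 to 20.7 CPM at high temperature.

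Levels between genes were compared in the deposited TPM, transcript abundances scaled by gene length and to one total in every library. Over the 6 libraries the mean TPM of the 67 members with enough reads to be tested ran from 0.70 for ATP5D to 1463 for COX6C, with a median of 58.5. 20 members were at 100 TPM or more and 18 were below 10 TPM. The 6 members with the most reads took 44.1% to 48.2% of all member reads in each library. Transcripts of partner subunits of 1 complex therefore differed widely in level, as the plot of deposited TPM shows. COX8H, a gene of the COX8 family, was the single member that was not tested, with 0 reads in all 6 libraries, which allows a level of up to 0.0173 CPM over all libraries at a limit of 3 counts.

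**Figure D1:**
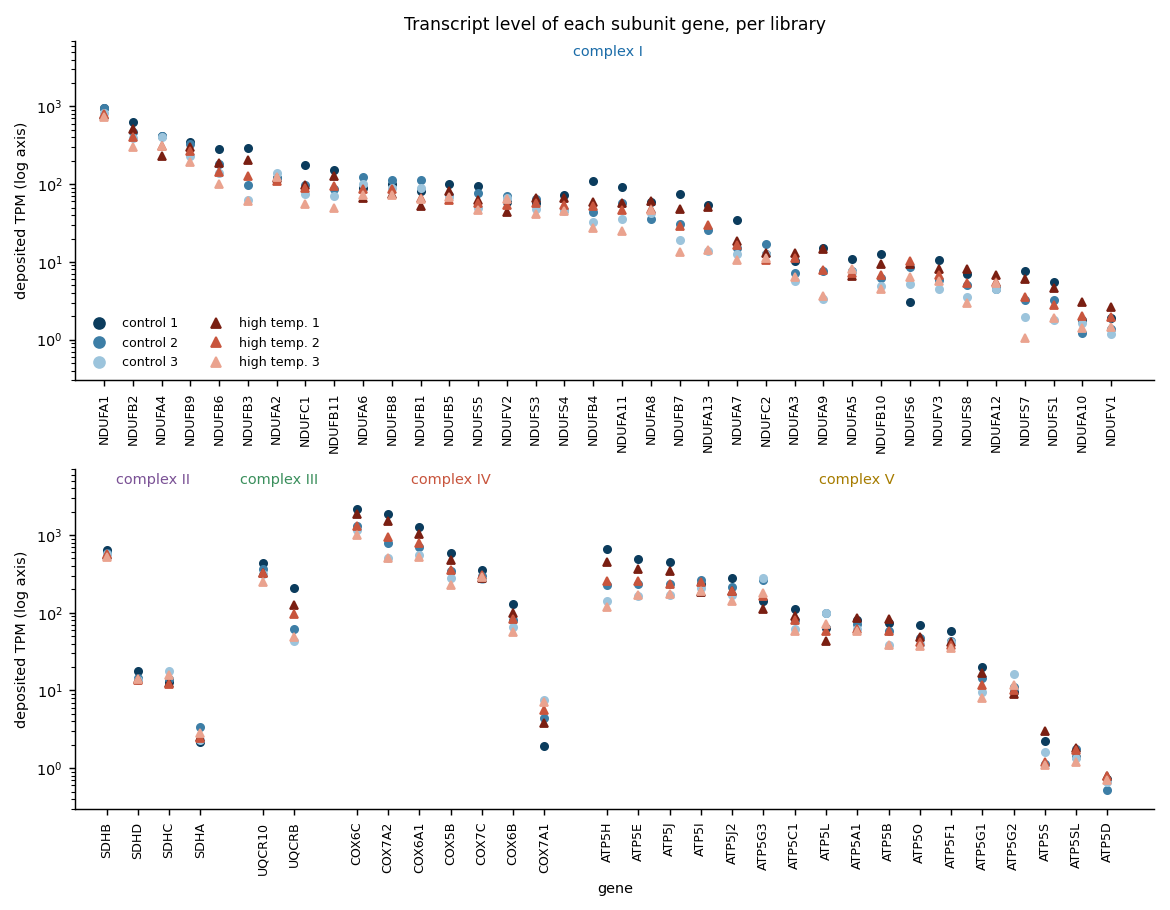
Deposited TPM (log axis) of 66 of the 67 tested members, 1 point per library, in order of mean level within each complex; circles are controls and triangles are high temperature libraries. Levels run from below 1 TPM for ATP5D to above 1000 TPM for COX6C, and within complex II SDHB stands far above SDHA, SDHC and SDHD.

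In complex I the accessory subunits, which surround the catalytic core and stabilise it, had higher transcript levels than the core. The 30 accessory members had a median of 54.7 TPM and the 7 core members a median of 3.91 TPM. NDUFV1, which binds NADH and passes its electrons to flavin, was the lowest at 1.74 TPM. NDUFS1, the large iron-sulphur subunit, was at 3.31 TPM and NDUFS7, which carries the last iron-sulphur cluster, at 3.91 TPM. NDUFV2, an iron-sulphur subunit that sits beside NDUFV1, was the highest core member at 60.0 TPM. NDUFA1, a small membrane subunit, was the highest accessory member at 834 TPM.

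Complex II also had a wide gap between partners. SDHB, the iron-sulphur subunit, was at 573 TPM, while SDHA, the flavoprotein that oxidises succinate, was at 2.60 TPM, although the assembled enzyme holds both in equal number. The ratio of SDHB to SDHA was 293, 175 and 252 in controls and 219, 230 and 184 at high temperature, so the groups overlapped. SDHC and SDHD, the membrane anchors, were at 14.2 and 14.5 TPM. The gene span of SDHA overlaps that of CCDC127 in the annotation.

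Among the members by symbol, complex IV was the most abundant group, with a median of 379 TPM over the 7 that were tested. The 9 tested complex IV subunits that stand under a locus name had a median of 78.7 TPM, so the ranking depends on the symbol rule. COX6C was at 1463 TPM, COX7A2 at 1021 TPM and COX6A1 at 812 TPM. COX7A1, the heart and muscle form of the COX7A subunit, was at 5.07 TPM. In complex V the highest member was ATP5H (subunit d of the peripheral stalk) at 309 TPM, and the catalytic pair ATP5A1 (alpha) and ATP5B (beta) were at 70.2 and 58.5 TPM. ATP5D, the delta subunit of the central stalk, had only 15 to 24 reads per library, and its level is accordingly imprecise.

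No member passed the test between temperatures. With edgeR's quasi-likelihood test, fitted over 16056 genes with Benjamini-Hochberg adjustment, the adjusted p was 0.999923 for each of the 67 members, and 0.0% of all genes tested were called. An unadjusted p below 0.05 was found for 5 members, against 1.85% of all genes. DESeq2 also called 0 members, while it called 0.0202% of all genes, and gave 5 members an unadjusted p below 0.05. The 95% interval lay within a 2-fold change either way for 22 members, against 49.7% of all genes, so for the other members a 2-fold difference in at least one direction is not excluded by these libraries.

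The direction of the fitted change was mostly downward. The log2 fold change of high temperature over control was below 0 for 58 of 67 members, against 52.5% of all genes tested, and the median was -0.30 against -0.02 over all genes. The median was -0.34 for complex I (31 of 37 below 0), -0.23 for complex II (4 of 4), -0.41 for complex III (2 of 2), -0.25 for complex IV (6 of 7) and -0.27 for complex V (15 of 17). Within complex I it was -0.12 for the core and -0.34 for the accessory members. In pooled embryos, fewer cells with a transcript and less transcript per cell cannot be told apart.

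The downward median depended on which libraries were in the fit. Among fits with 1 library left out, only that without control replicate 1 gave a median above 0. Without control replicate 1 the median of the members was 0.04 with 28 of 67 below 0, and without high temperature replicate 3 it was -0.07 with 42 of 67. It was -0.54 without control replicate 3 and -0.50 when high temperature replicate 1 was left out. With both control replicate 1 and high temperature replicate 3 left out, the median was 0.22 and 20 members were below 0. These libraries had the highest and the lowest summed member level of all libraries. Leaving both out shifts the median upward by the choice of libraries, so this fit cannot decide the direction. The direction held with library totals in place of TMM scaling, but the median was then -0.17 against 0.08 for all genes. It also held with the replicate number as a block, although the labels state no pairing. The median was then -0.25 against -0.01 for all genes, and 57 of 67 members were below 0.

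**Figure D2:**
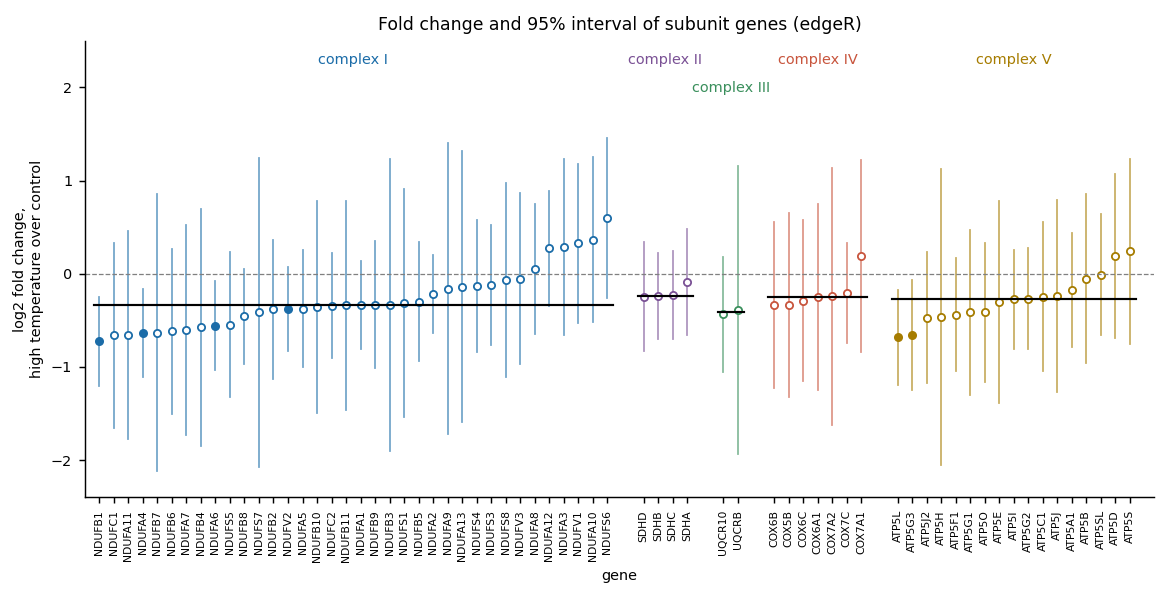
Log2 fold change (high temperature over control, TMM-scaled counts, edgeR) of 66 of the 67 tested members with 95% intervals, ordered within each complex; horizontal bars are the complex medians over all tested members and filled points are members whose control and high temperature values do not overlap. 57 points lie below 0, most intervals include 0, and the 6 filled points belong to complexes I and V by symbol.

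**Figure D3:**
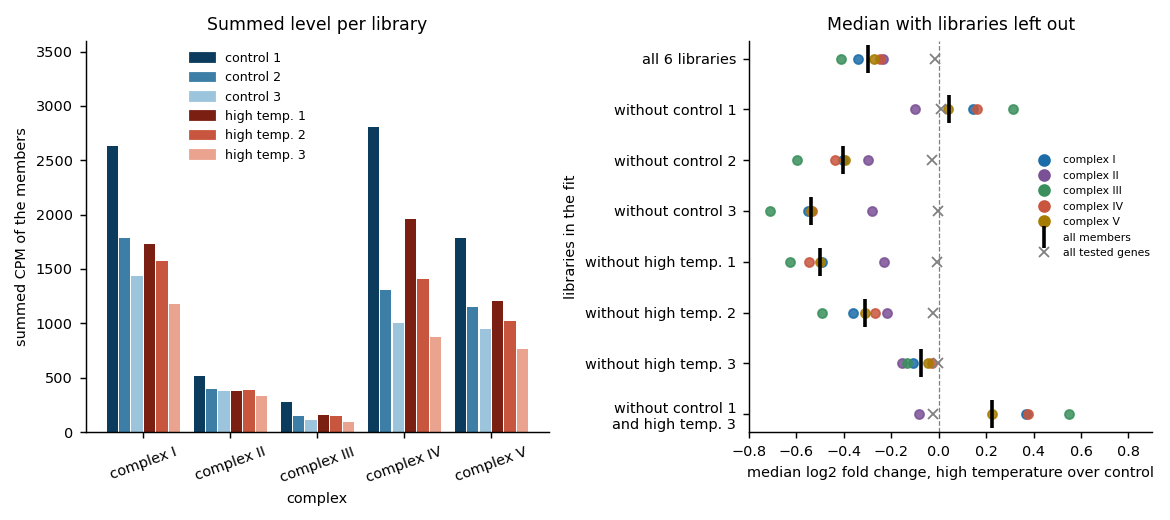
Left, summed TMM-scaled CPM of the members of each complex in each library (bars start at 0); right, median log2 fold change of each complex and of all members with all 6 libraries and with libraries left out. Control replicate 1 has the tallest bar in every complex, and the medians of complexes I, III, IV and V lie above 0 once it is left out.

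The members moved together between libraries more than between temperatures. Summed over the members, the level was 8014, 4785 and 3879 CPM in control replicates 1 to 3 and 5439, 4534 and 3240 CPM in high temperature replicates 1 to 3. Replicate 1 was highest and replicate 3 lowest in each group, and the groups overlapped. Replicate 1 had the highest level in both groups for 47 of 67 members, against 26.7% of all genes tested. It was the highest control for 56 members (40.0% of all genes) and the highest high temperature library for 49 (37.4%). Replicate 3 had the lowest in both groups for 49 members, against 27.9%. Control replicate 1 was at least 2-fold above control replicate 3 for 31 members (17.5% of all genes), high temperature replicate 1 was at least 2-fold above replicate 3 for 22 (15.4%), and both held for 21 (10.3%).

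**Figure D4:**
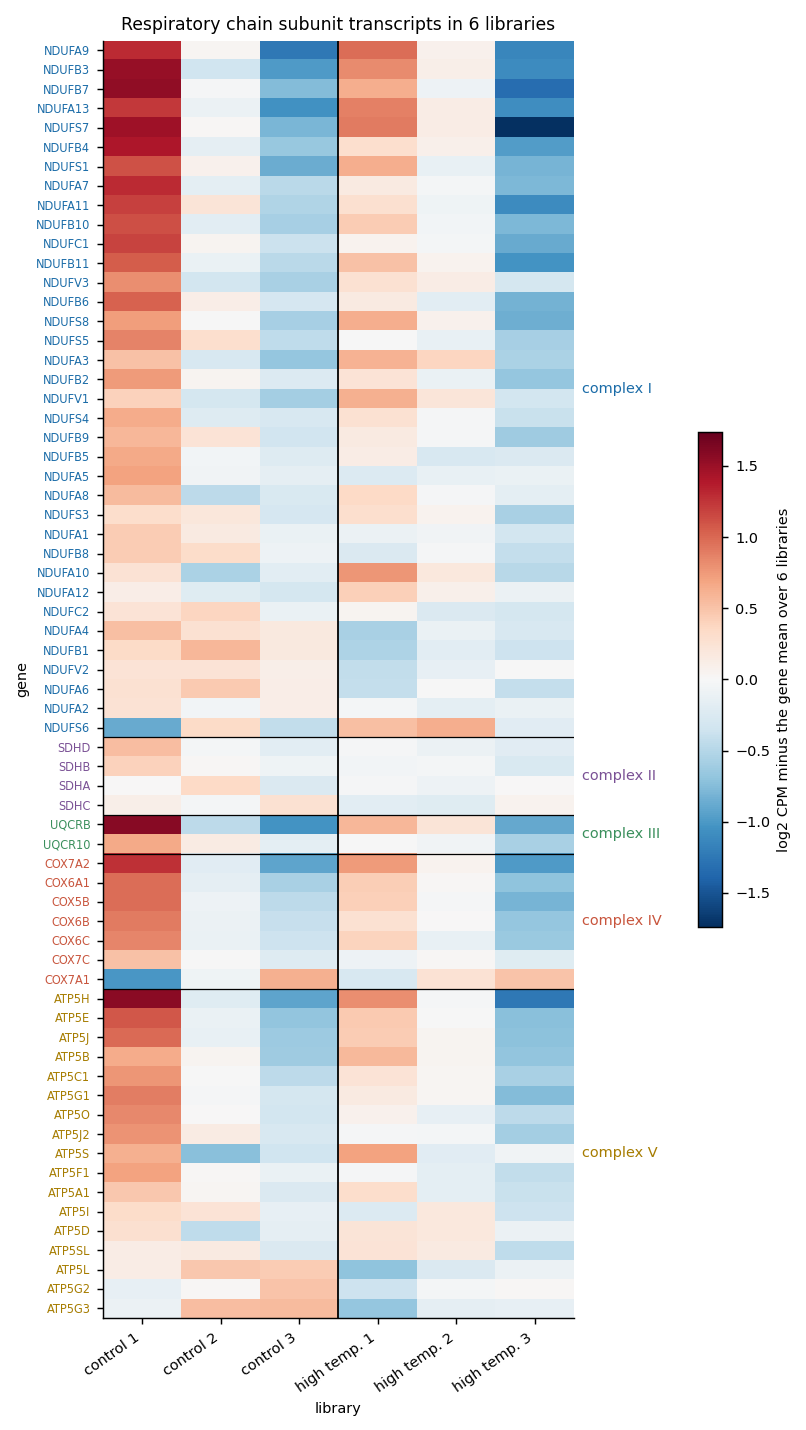
Log2 CPM of 66 of the 67 tested members, each minus its mean over the 6 libraries (colour scale in log2 units), with genes in rows by complex and libraries in columns. The first column of each group is red and the third blue for most members. NDUFS6, COX7A1, ATP5L, ATP5G2 and ATP5G3 are among those that depart from this.

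UQCRB, a small subunit of complex III near its ubiquinone site, had the widest spread among controls. Its level was 102, 25.0 and 16.5 CPM in control replicates 1 to 3 and 51.2, 39.9 and 18.4 CPM in high temperature replicates 1 to 3. The first library of each group was high, the third low, and the groups overlapped throughout. The log2 fold change was -0.39 with a standard error of 0.67, and 0.81 without control replicate 1.

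ATP5H, of the stalk that holds the ATP synthase head still, followed the same order. It was at 354, 103 and 63.1 CPM in controls and 209, 117 and 50.1 CPM at high temperature. COX7A2, the widely expressed form of COX7A, was at 786, 282 and 172 CPM in controls and 544, 340 and 164 CPM at high temperature. Both had the first library of each group far above the third, and the high temperature values lay inside the control range except at its lower end. COX6C, a small membrane subunit of complex IV, showed a milder form, with 907, 465 and 393 CPM in controls and 658, 462 and 322 CPM at high temperature.

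In complex I, NDUFB3 and NDUFA9 were chosen as further examples after their values were seen. NDUFB3, an accessory subunit of the membrane arm, was at 188, 51.4 and 33.1 CPM in controls and 115, 70.0 and 30.7 CPM at high temperature. NDUFA9, which sits where the membrane and matrix arms meet, was at 18.5, 7.69 and 3.19 CPM in controls and 14.9, 7.96 and 3.43 CPM at high temperature. NDUFS7 of the core was at 6.08, 2.21 and 1.26 CPM in controls and 4.11, 2.40 and 0.654 CPM at high temperature. For each of these the spread within a group exceeded the gap between the group means.

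Other features of the libraries moved in the same way. The cytosolic ribosomal protein genes summed to 16325, 7956 and 5683 CPM in controls and 12279, 8543 and 5304 CPM at high temperature, and 74 of 78 had replicate 1 highest in both groups. The summed cumulus and granulosa markers were also highest in replicate 1 and lowest in replicate 3 of each group, but most of that sum was 1 gene. NR5A2 was at 59.1, 40.7 and 25.1 CPM in controls and 69.4, 53.9 and 31.3 CPM at high temperature. Replicate 1 was highest in both groups for 3 of the 5 tested markers of that list. CYP19A1, with 7 to 14 reads per library, had replicate 3 highest in each group. Reads of 18S ribosomal RNA ran the other way, at 105, 347 and 554 CPM in controls and 218, 422 and 968 CPM at high temperature. Their part in the levels of the members was not tested.

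6 members had all 3 high temperature values below all 3 control values on the TMM-scaled CPM, against 4.05% of all genes tested, and 0 members had all 3 above, against 3.66%. In either direction 7.71% of all genes lacked overlap. They were NDUFB1, NDUFA4, NDUFA6 and NDUFV2 of complex I by symbol, and ATP5L and ATP5G3 of complex V. None of the 6 passed the adjusted test. Replicate 1 was highest in both groups for 0 of the 6. The highest control value was 1.11 to 1.58 times the lowest for these members (median 1.27), while the median over the other tested members was 2.30 and the largest 6.17. Picking members by lack of overlap in the same values favours a narrow spread within groups. The spread and replicate order of the 6 are therefore no separate finding.

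NDUFB1 encodes a small accessory subunit of the membrane arm of complex I and lies at chr7:113652772-113659937 (Sscrofa11.1), where its span overlaps that of CPSF2. It was at 35.2, 41.4 and 31.3 CPM in controls and 19.1, 24.5 and 21.6 CPM at high temperature. The highest high temperature library thus lay below the lowest control. The mean was 36.0 ± 5.06 CPM (SD, n = 3) in controls and 21.8 ± 2.70 CPM (SD, n = 3) at high temperature. The log2 fold change was -0.72 with a standard error of 0.21 and a 95% interval of -1.20 to -0.25, and the adjusted p of edgeR was 0.999923.

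NDUFA4 lies at chr9:80637005-80644067. Its symbol places it in complex I, but its product is known as a component of complex IV. It was at 179, 150 and 139 CPM in controls and 83.8, 114 and 103 CPM at high temperature. The means were 156 ± 20.3 and 100.2 ± 15.4 CPM (SD, n = 3 each), a log2 fold change of -0.64 with a standard error of 0.21. In TPM the 3 controls lay close together, at 412, 416 and 406, with the high temperature libraries at 228, 314 and 310.

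NDUFA6, an accessory subunit of the matrix arm, lies at chr5:6562074-6567321. It was at 70.9, 81.2 and 64.2 CPM in controls and 44.1, 58.6 and 44.0 CPM at high temperature. The means were 72.1 ± 8.55 and 48.9 ± 8.36 CPM (SD, n = 3 each), and the log2 fold change was -0.56 with a standard error of 0.21. NDUFV2, the iron-sulphur core subunit at chr6:98819156-98852561, was at 45.9, 45.8 and 41.5 CPM in controls and 28.7, 35.1 and 38.7 CPM at high temperature. Its log2 fold change was -0.38 with a standard error of 0.20, the smallest of the 6, and its interval of -0.83 to 0.08 includes 0.

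ATP5L, subunit g of the membrane part of ATP synthase, lies at chr9:45706449-45716541 and overlaps the span of LOC102167309. It was at 158, 199 and 196 CPM in controls and 88.9, 121 and 135 CPM at high temperature. ATP5G3, one of the genes for the c ring that turns as protons pass, lies at chr15:81091037-81094297. It was at 89.2, 139 and 141 CPM in controls and 60.1, 86.5 and 87.4 CPM at high temperature. In both genes replicate 1 was the lowest library of each group, the reverse of most members. The log2 fold changes were -0.68 and -0.66, with standard errors of 0.22 and 0.26.

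The scaling decided which members lacked overlap. With CPM by library totals, 5 members had all high temperature values below the controls (2.13% of all genes) and 1 had all above (5.24%). In the deposited TPM 6 members were lower (2.27%) and 1 was higher (4.96%). NDUFB1, NDUFA4 and NDUFA6 lacked overlap on all 3 scales, while NDUFV2, ATP5L and ATP5G3 did so on the TMM-scaled CPM alone. In the TPM, NDUFA1, NDUFB8 and SDHB were lower without overlap and NDUFA12 was higher. The fitted change of each of the 6 members stayed below 0 in 18 of 18 settings, from -0.82 to -0.61 for NDUFB1. The 6 were picked for values below the controls in these same libraries, so this sign was largely given by the selection.

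**Figure D5:**
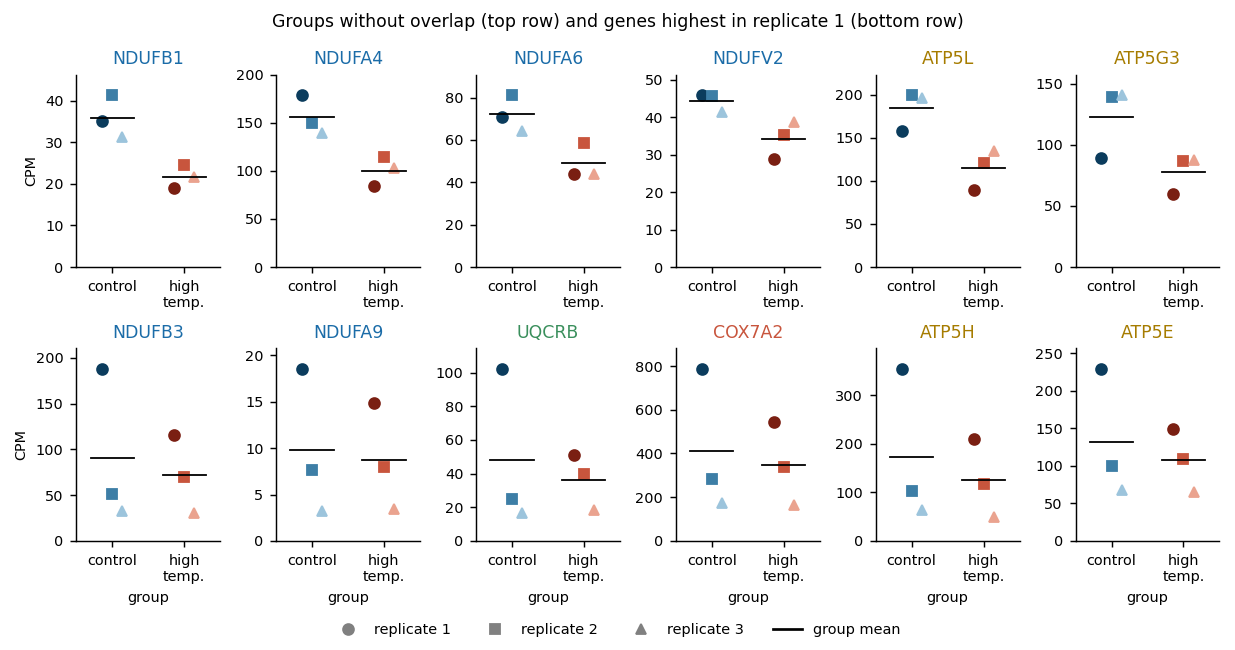
TMM-scaled CPM of 12 members per library (axes start at 0), with circles, squares and triangles for replicates 1 to 3 and bars for the group means. In the top row every high temperature value lies below every control value; in the bottom row replicate 1 is the highest and replicate 3 the lowest of each group.

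The c ring is encoded by ATP5G1, ATP5G2 and ATP5G3, whose mature proteins are the same while the genes differ. ATP5G3 supplied 81.6% to 91.5% of their summed TPM in the 6 libraries. The sum of the genes was 133, 181 and 194 CPM in controls and 94.4, 127 and 126 CPM at high temperature, without overlap on this scale, while in TPM the highest high temperature library, at 202, stood above the lowest control, at 172. ATP5G1 was at 13.1, 7.0 and 5.71 CPM in controls and 7.91, 7.26 and 4.19 CPM at high temperature. ATP5G2 was at 30.7, 34.6 and 48.0 CPM in controls and 26.4, 33.2 and 34.6 CPM at high temperature. Both overlapped between the groups, and their log2 fold changes were -0.42 and -0.27 with standard errors of 0.38 and 0.24.

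The genes of the catalytic head and central stalk of ATP synthase overlapped between the groups. ATP5A1 was at 135, 99.9 and 81.8 CPM in controls and 120, 86.3 and 74.2 CPM at high temperature, with a log2 fold change of -0.18. ATP5B was at 124, 82.3 and 51.8 CPM in controls and 117, 82.2 and 49.3 CPM at high temperature, with a log2 fold change of -0.05. The ATP5B values of the groups span nearly the same range, and the standard error of its fitted change is 0.39. ATP5E, the epsilon subunit of the central stalk, was at 229, 101 and 67.8 CPM in controls and 149, 109 and 65.7 CPM at high temperature, with a log2 fold change of -0.30 and a standard error of 0.47. ATP5C1, the gamma subunit that turns inside the head, had a log2 fold change of -0.25 with a standard error of 0.35.

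On the TMM-scaled CPM the members of complex II and UQCR10 overlapped between temperatures. SDHB was at 484, 370 and 348 CPM in controls and 353, 358 and 304 CPM at high temperature, and SDHA was at 5.27, 6.72 and 4.42 CPM against 5.17, 4.97 and 5.30 CPM. The SDHA means of 5.47 ± 1.17 and 5.14 ± 0.166 CPM (SD, n = 3 each) differed by less than the spread of the controls. In the deposited TPM, SDHB was at 638, 586 and 577 in controls and 550, 562 and 524 at high temperature, without overlap, and the sum of complex II, which is mostly SDHB, also lacked overlap. UQCR10, a small subunit of complex III, was at 172, 120 and 97.3 CPM in controls and 109, 105 and 73.7 CPM at high temperature, with a log2 fold change of -0.44 and a standard error of 0.27.

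9 members had a fitted change above 0, against 47.5% of all genes. They were NDUFV1, NDUFA3, NDUFA8, NDUFA10, NDUFA12, NDUFS6, COX7A1, ATP5D and ATP5S, and these were listed after their values were seen. NDUFS6, an accessory subunit of the matrix arm that binds zinc, had the largest, 0.60 with a standard error of 0.37. It was at 2.35, 5.41 and 3.19 CPM in controls and 6.16, 6.67 and 3.76 CPM at high temperature, so 1 high temperature library lay within the control range. NDUFV1 was at 2.69, 1.65 and 1.36 CPM in controls and 3.15, 2.36 and 1.63 CPM at high temperature, with a log2 fold change of 0.33 and a standard error of 0.37. All 9 overlapped between the groups on this scale.

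Several complex IV subunits have tissue forms encoded by separate genes, and the widely expressed form was the more abundant in every pair compared. The TPM ratio of COX7A2 to COX7A1 was 955, 183 and 66.9 in controls and 401, 170 and 70.7 at high temperature, so it differed more between libraries than between temperatures. COX7A1 itself was at 0.577, 1.10 and 1.79 CPM in controls and 0.958, 1.39 and 1.63 CPM at high temperature, with replicate 1 lowest in each group. The ratio of COX6A1 to COX6A2, the muscle form, was 341, 227 and 367 in controls and 259, 216 and 252 at high temperature. COX8A exceeded COX8C by 36.3, 42.7 and 60.6 times in controls and by 87.0, 56.5 and 65.6 times at high temperature. COX7B exceeded COX7B2 by 7.17 to 11.11 times in the 6 libraries, the narrowest margin among the pairs.

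The 19 subunits that stand under a locus name or another symbol were found by the product name in the annotation. Of these, 18 were tested, 0 were called, 15 had a fitted change below 0, against 52.5% of all genes, and the median was -0.23. Without control replicate 1 these were 9 of 18 and 0.03, and the median was -0.08 without high temperature replicate 3. UQCRH (LOC100524873), the acidic hinge subunit of complex III, was at 470, 455 and 405 CPM in controls and 330, 376 and 320 CPM at high temperature, without overlap. COX7B2 (LOC100517408) and COX8C (LOC100157935), forms known from testis, also had every high temperature value below the controls on the TMM-scaled CPM. That made 3 of the 18 lower without overlap, against 4.05% of all genes tested. In the deposited TPM COX7B2 overlapped, with high temperature replicate 3 at 15.5 above control replicate 1 at 14.8. COX8C was at 11.7, 10.6 and 8.23 CPM in controls and 5.37, 7.96 and 7.26 CPM at high temperature, with a log2 fold change of -0.57. COX8A (LOC100522725) stayed between 377 and 443 CPM in all 6 libraries, with a log2 fold change of 0.02. COX4I1 (LOC100624067), the widely expressed form of subunit 4 of complex IV, was at 103, 36.1 and 16.3 CPM in controls and 75.1, 45.4 and 15.6 CPM at high temperature, the library order of most members.

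The mitochondrially encoded subunits, partners of the members in 4 of the complexes, had a fitted change above 0 for 13 of 13 genes, with a median of 0.08 and 0 called. Without control replicate 3 it was above 0 for 7 of 13, with a median of 0.01. Their share of all reads was 23.6%, 21.0% and 21.5% in controls and 26.7%, 24.9% and 23.8% at high temperature, without overlap. In the deposited TPM their sums for complexes I, III, IV and V were each higher at high temperature without overlap, as in complex I with 78475, 70573 and 68986 in controls and 90054, 86252 and 79539 at high temperature, while on the TMM-scaled CPM each of these sums overlapped. The ratio of their summed CPM to that of the members was 34.1, 43.9 and 53.1 in controls and 48.5, 54.6 and 67.6 at high temperature. The ratio rests on no scaling between libraries, and the groups overlapped, with high temperature replicate 1 below control replicate 3. Polyadenylated RNA was captured, and how evenly that draws mitochondrial transcripts was not tested.

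Genes that build or serve the chain were counted from lists fixed with the members. Only genes standing under the listed symbol were counted. Of the listed assembly factors these were 16 of 19 for complex I, 3 of 4 for II, 3 of 6 for III, 10 of 24 for IV and 6 of 7 for V. For ubiquinone synthesis they were 13 of 15. Complex I assembly factors had 12 of 16 fitted changes below 0 (median -0.27), and those of complex IV 7 of 10 (median -0.17), complex II 2 of 3, complex III 1 of 3 and complex V 3 of 6. Ubiquinone synthesis had 8 of 13 below 0, the tricarboxylic acid cycle with pyruvate dehydrogenase 11 of 19 and mitochondrial biogenesis factors 11 of 14. No gene of these lists was called. Without control replicate 1 the counts below 0 were 4 of 16 for complex I assembly (median 0.30), 4 of 10 for complex IV assembly (0.12), 7 of 19 for the tricarboxylic acid cycle list and 3 of 14 for biogenesis (0.14). Without high temperature replicate 3 the medians of complex I assembly and biogenesis were 0.10 and 0.05. With library totals in place of TMM scaling, 5 of 19 genes of the tricarboxylic acid cycle list were below 0. CYCS, which carries electrons from complex III to complex IV, was at 608, 459 and 360 CPM in controls and 345, 421 and 310 CPM at high temperature, with a log2 fold change of -0.41.

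Some genes of these lists lacked overlap in one direction or the other on the TMM-scaled CPM, against 7.71% of all genes tested. Among assembly factors these were 1 of 16 for complex I, 1 of 3 for II, 0 of 3 for III, 2 of 10 for IV and 1 of 6 for V. The counts were 1 of 13 for ubiquinone synthesis, 1 of 19 for the tricarboxylic acid cycle list and 0 of 14 for biogenesis. FASTKD2, which handles mitochondrial RNA, was at 38.0, 34.7 and 29.0 CPM in controls and 27.3, 21.8 and 23.1 CPM at high temperature. CS, citrate synthase, was at 124, 192 and 178 CPM in controls and 196, 206 and 273 CPM at high temperature. Of 10 tested carriers and pores of the mitochondrial membranes, which include the outer-membrane pores VDAC1, VDAC2 and VDAC3, 7 had a fitted change below 0, and 5 without control replicate 1. The other 3, SLC25A6, UCP1 and UCP2, were higher without overlap, against 3.66% of all genes tested. SLC25A6, an exchanger of ADP for ATP, was at 22.2, 18.3 and 16.8 CPM in controls and 36.2, 24.4 and 26.2 CPM at high temperature, with a log2 fold change of 0.60, a standard error of 0.23 and an adjusted p of 0.999923 in edgeR. UCP2, an anion carrier that carries the name of the uncoupling proteins, was near the limit of counting at 0.231 to 1.06 CPM.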

How the data were processed

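Per the file headers, the authors gave whole-number read counts without scaling. Beside them they deposited FPKM and TPM, both scaled by length and library. Sscrofa11.1, StringTie 2.1.3b, Bowtie2, HISAT, HISAT2 2.1.0 and Trimmomatic 0.38 appear in the submitters' processing notes. The sources used here do not name the counting tool or its treatment of reads in overlapping genes. Of the members, 21 overlap another gene span in the RefSeq table of Sscrofa11.1, and their reads may belong to either gene.

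The main test was edgeR 4.0.16 under R 4.3.3 (quasi-likelihood test on the counts, TMM scaling, default expression filter, 16056 genes, group as the single term, Benjamini-Hochberg adjustment at 0.05). CPM values use TMM-scaled library sizes. The tests were tried on simulated counts. These were drawn independently for each gene, without the shared replicate order of these libraries. The trial therefore does not cover that feature. Alternatives were DESeq2 1.42.0, other scalings, no filter, limma 3.58.1 on log2 values of FPKM and TPM with a pseudocount of 1 (FPKM also 0.1) and a mean of at least 1, libraries left out, the replicate number as a block, and other member rules.

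The members, lists and tests were chosen with earlier results of these data known. Named members were core or structural subunits, the 2 smallest p and the highest and lowest TPM of a complex, isoform pairs, members without overlap and untested ones. Of each other list, the 2 smallest p and the highest TPM could be named. UCP1, CS, NDUFA8, NDUFB8 and others outside the rule were chosen after their values were seen. One tested member is counted throughout, but its own values are not reported here. The limit for 0 reads covers counting error only.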

Additional observations from a re-analysis of the deposited data

How the results depend on the processing

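Leaving out 1 library at a time gave a median log2 fold change of -0.54 to 0.042 for the members, -0.55 to 0.14 for complex I, -0.30 to -0.10 for complex II, -0.71 to 0.32 for complex III, -0.55 to 0.16 for complex IV and -0.54 to 0.039 for complex V, with 28 to 59 of 67 members below 0. The values above 0 came without control replicate 1. With control replicate 1 and high temperature replicate 3 both left out, the medians were 0.22 for the members, 0.37 for complex I, -0.08 for complex II, 0.55 for complex III, 0.38 for complex IV and 0.22 for complex V, with 20 members below 0 and 1 gene of all called. Over all genes, 5 were called by DESeq2 and 1 without the filter on low counts, and 0 members were called under any of these settings. The cause of these shifts was not tested. On log2(FPKM + 1) the median of the members was -0.15, with 48 of 66 below 0. The correlation of deviations between same-numbered libraries was 0.52, 0.01 and 0.59 for replicates 1 to 3. It was -0.57 between control replicate 1 and high temperature replicate 3, and -0.52 between control replicate 3 and high temperature replicate 1. The labels state no pairing, so the main fit held no block. With the replicate number as a block 3 of 16056 genes and 0 members were called, the median of the members was -0.25 and 57 were below 0. An unadjusted p below 0.05 in that edgeR fit was found for 19 members and 1485 of all genes. Without the block these were 5 and 297. Of 29 named members, 15 kept their sign without control replicate 1. Levels under 1 CPM, as for ATP5D, rest on few reads and their changes are imprecise.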
